A study of Homo sapiens with 12 samples.

Results

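The genes described here are the expressed LINC RNAs, the long intergenic noncoding RNAs whose approved symbol is LINC followed by a number. They were chosen as the rows with such a symbol and a mean raw count of at least 50 over the 12 libraries, and 60 of the 589 LINC rows in a table of 23434 genes met this rule. The members were thus chosen by their raw counts in these same libraries, so their levels are given as a description. A member can pass the rule mainly through a group in which it is high. The lowest members were LINC01119, LINC01140 and LINC01116, with mean raw counts of 51.4, 50.3 and 50.2, and the nearest rows left out were LINC01547, LINC01366 and LINC01239, with 49.2, 48.2 and 47.8. Of the other LINC rows, 64 had no count in any library.

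The libraries came from EU-seq, in which RNA made during a pulse of 5-ethynyl-uridine is tagged, captured and sequenced, so the signal follows transcription in that window. The cells were U2OS-MycER, derived from a human osteosarcoma and expressing a chimera of Myc and the estrogen receptor, which 4-hydroxytamoxifen (OHT) activates. The 4 groups of 3 libraries were cells with a non-targeting shRNA (shNT), shNT with OHT, cells with an shRNA against CDK12, the kinase that phosphorylates elongating RNA polymerase II (shCDK12), and shCDK12 with OHT. All 4 groups, the controls included, received doxycycline at 1 µg/mL to induce the shRNA, nocodazole at 100 ng/mL for 8 h, a release of 12 h after mitotic shake-off, and 0.5 mM of the uridine analogue for the last 2 h. OHT was given at 300 nM for 40 h, and 40 µg of the human RNA was pooled with 10 µg from mouse cells before each pulldown. The labels do not say whether replicates were separate cultures, so p-values measure only the spread between these libraries, nor how many shRNAs or clones were used.

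LINC RNAs are made by RNA polymerase II, mostly capped, spliced and polyadenylated, and lie between protein-coding genes without coding for a known protein. Many start from a promoter shared with a coding gene on the opposite strand, many are kept in the nucleus and turned over quickly, and their levels differ more between cell types than those of coding genes. For most of the members no function is established, and in a nascent RNA assay a change in level reads out activity at the locus, whether or not the transcript acts by itself.

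RefSeq gave a window from 250 bases before to 50 bases after the start of transcription for 44 of the 60 members (assembly GRCh38.p14). The E-box CACGTG, the letters bound by Myc with Max, was looked for because MycER was the activated factor. It reads the same on both strands. It lay in the windows of 3 of the 44 members, LINC01126, LINC01096 and LINC01278, or 6.82%, against 8.78% of the 27305 genes with a window. The variant CACGCG, searched on both strands, lay in 7 members, or 15.9%, against 13.5% of all genes. A match is a description of letters only. The 3 windows with the E-box are printed with it in capitals. It begins at position 212 in LINC01126 (chr2:43226961-43227260, plus strand), 262 in LINC01096 (chr4:13547775-13548074, minus strand) and 270 in LINC01278 (chrX:63561046-63561345, minus strand), counted from 1 at the 5′ end.
LINC01126: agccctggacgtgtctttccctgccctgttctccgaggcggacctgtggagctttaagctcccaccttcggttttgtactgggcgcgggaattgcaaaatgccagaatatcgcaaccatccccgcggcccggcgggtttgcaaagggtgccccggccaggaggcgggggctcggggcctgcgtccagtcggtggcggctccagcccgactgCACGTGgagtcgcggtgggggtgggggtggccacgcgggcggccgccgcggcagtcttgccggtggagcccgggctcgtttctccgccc
LINC01096: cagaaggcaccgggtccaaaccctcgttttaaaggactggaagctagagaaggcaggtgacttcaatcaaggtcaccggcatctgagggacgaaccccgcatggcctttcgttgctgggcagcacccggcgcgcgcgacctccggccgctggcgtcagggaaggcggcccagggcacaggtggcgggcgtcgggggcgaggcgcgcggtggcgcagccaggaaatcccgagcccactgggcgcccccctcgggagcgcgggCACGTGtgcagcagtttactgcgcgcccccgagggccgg
LINC01278: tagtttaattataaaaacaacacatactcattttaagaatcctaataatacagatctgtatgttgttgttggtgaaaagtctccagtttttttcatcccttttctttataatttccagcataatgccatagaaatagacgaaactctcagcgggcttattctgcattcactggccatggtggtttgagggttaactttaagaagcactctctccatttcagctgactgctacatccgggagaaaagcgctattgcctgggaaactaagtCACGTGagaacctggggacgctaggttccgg

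The next windows belong to members on which the results below turn. LINC03033 (chr14:61570290-61570589, plus strand) had the largest fall. LINC00839 (chr10:42475241-42475540, plus strand) was higher in shNT with OHT and in the libraries labelled shCDK12 than in shNT. In both windows the capitals mark the first 50 transcribed bases. LINC00667 (chr18:5237850-5238149, plus strand) and LINC00526 start back to back on opposite strands, and the capitals mark the 170 bases that both windows hold. None of these 3 windows holds CACGTG.
LINC03033: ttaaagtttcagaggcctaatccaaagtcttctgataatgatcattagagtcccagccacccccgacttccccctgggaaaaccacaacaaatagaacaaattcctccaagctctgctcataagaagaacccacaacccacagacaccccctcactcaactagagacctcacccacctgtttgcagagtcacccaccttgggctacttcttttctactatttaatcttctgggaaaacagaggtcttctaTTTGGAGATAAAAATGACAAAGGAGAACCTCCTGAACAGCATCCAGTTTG
LINC00839: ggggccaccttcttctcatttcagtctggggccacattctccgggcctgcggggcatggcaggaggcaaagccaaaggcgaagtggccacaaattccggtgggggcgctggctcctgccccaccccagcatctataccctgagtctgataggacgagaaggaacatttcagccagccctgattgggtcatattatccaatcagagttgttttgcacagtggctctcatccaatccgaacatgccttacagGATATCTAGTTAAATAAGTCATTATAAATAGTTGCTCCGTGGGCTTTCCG
LINC00667: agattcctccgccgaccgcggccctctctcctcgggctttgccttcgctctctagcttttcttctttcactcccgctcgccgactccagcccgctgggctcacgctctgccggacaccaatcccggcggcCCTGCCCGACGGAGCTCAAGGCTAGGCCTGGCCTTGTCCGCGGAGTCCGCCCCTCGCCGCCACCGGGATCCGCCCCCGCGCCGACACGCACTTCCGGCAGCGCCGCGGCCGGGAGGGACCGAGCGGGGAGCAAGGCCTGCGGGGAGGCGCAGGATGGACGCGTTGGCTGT

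The libraries held between 1251695 and 10447836 counts, an 8.35-fold range, with shNT with OHT the shallowest group. CDK12 was measured first as a check of the labels. Its level, as CPM (counts scaled to library size, here with the trimmed mean of M-values), was 323, 289 and 300.2 in shNT and 293, 277 and 298 in the libraries labelled shCDK12. With OHT it was 434, 356 and 400.5 in shNT and 215, 208 and 218 under the shCDK12 label. The log2 fold change was −0.04 ± 0.08 (SE) without OHT (adjusted p = 0.721, edgeR) and −0.89 ± 0.10 with OHT (adjusted p = 9.12e-05, edgeR). The label is thus not borne out by CDK12 without OHT, and "the libraries labelled shCDK12" is written throughout. Of the osteosarcoma and mesenchymal markers, VIM, FN1, RUNX2, SPARC and CDH2 were detected in every library, while COL1A2 and TWIST1 were at or near 0. Their level moved with the groups. The 7 markers summed to 1383 to 1482 CPM in shNT, 947 to 1024 CPM in shNT with OHT, 373 to 387 CPM in the libraries labelled shCDK12 and 528 to 547 CPM in those labelled shCDK12 with OHT. FN1, at 653 to 669 CPM in shNT and 35.2 to 41.0 CPM in the libraries labelled shCDK12, made up most of this, and RUNX2 was at 188 to 233 CPM against 57.6 to 64.2 CPM. The defining blood and liver markers were near 0. The 2 neural markers, SYP and RBFOX3, summed to 18.0 to 22.2 CPM in shNT and 12.2 to 22.6 CPM in shNT with OHT. They summed to 8.81 to 10.4 CPM in the libraries labelled shCDK12 and 9.89 to 11.1 CPM in those with OHT. MYH1 and ACTA1, for muscle, summed to at most 8.02 CPM, in shNT. The 4 epithelial markers, mostly KRT8 and KRT18, summed to 652 to 830 CPM in 3 of the groups and 886 to 970 CPM in the libraries labelled shCDK12 with OHT. EPCAM was at 0 to 1.76 CPM in shNT and 6.66 to 9.55 CPM in the libraries labelled shCDK12. The part of these markers in the results was not tested. In bulk libraries fewer cells making an RNA and less RNA made per cell cannot be told apart, and without the mouse rows a change in the total amount of new RNA cannot be seen.

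The 60 members held from 0.195% to 0.223% of the counts of a library, and their summed level lay between 1958 and 2197 CPM. The mean level over the 12 libraries ranged from 8.74 to 308 CPM with a median of 19.6 CPM, and the 10 highest members made up 53.5% of the sum. In CPM, which is not corrected for length, these were from the highest down LINC02693, LINC00958, LINC00963, LINC00839, LINC00674, LINC01128, LINC00667, LINC00662, LINC00673 and LINC00938. LINC00958 and LINC00963 have been studied in bladder and prostate tumours. Per kb of RefSeq span the highest mean levels were those of LINC00938, LINC00526 and LINC00958, at 23.8, 19.9 and 18.6 CPM per kb, and LINC02693 had 13.2 CPM per kb. The order depends on the length used. Per kb of exon in GENCODE, known for 56 members, LINC00938 ranked 28, LINC00526 6 and LINC00958 2. LINC00938 has 9815 exon bases there against a span of 2202 bp. All members had at least 1 count in every library, and 50 had at least 10. While the sum hardly moved, single members did. The ratio of the highest to the lowest group mean had a median of 1.92, exceeded 2 in 29 members and 4 in 6. The highest group was shNT for 22 members, the group labelled shCDK12 for 20, that with OHT for 13 and shNT with OHT for 5.

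**Figure D1:**
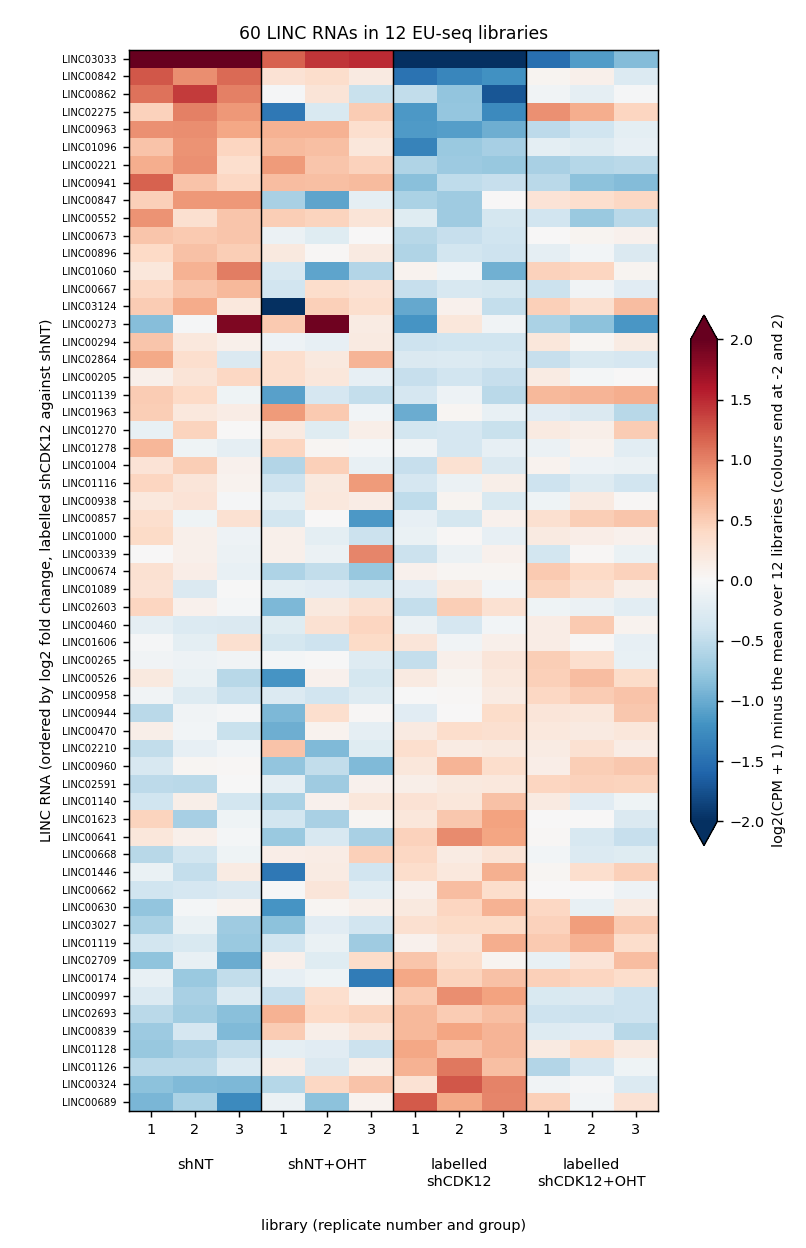
Each row is 1 of the 60 LINC RNAs and each column 1 of the 12 libraries; colour gives log2(CPM + 1) minus the mean of that RNA over all libraries, and rows are ordered by the log2 fold change of the libraries labelled shCDK12 against shNT. Members at the top are high in shNT and low in the libraries labelled shCDK12, those at the bottom the reverse, and in the columns with OHT many rows lie closer to the mean.

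The first comparison set shNT with OHT, which activates MycER, against shNT. No Myc target was used to check the OHT label. Of the 43 members above the filter on low counts, 10 passed the test (edgeR, adjusted p under 0.05), against 18.1% of all genes tested. Of the members 3 were higher and 7 lower, with 9.52% and 8.6% of all genes. The median log2 fold change of the tested members was −0.18, against −0.03 for all genes. The other 17 members were too low in these shallow libraries to be tested in the main fit. Without the filter 1 of the 17 passed, LINC01060, at −1.35 ± 0.39 (adjusted p = 0.00839, edgeR).

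LINC02693, the member with most counts, was higher in shNT with OHT than in shNT. Its levels were 197, 177 and 160.4 CPM in shNT and 464, 378 and 388 CPM in shNT with OHT, so the groups were far apart. The log2 fold change was 1.20 ± 0.13 (adjusted p = 1.51e-05, edgeR). LINC00839 rose from 57.6, 75.9 and 51.6 to 137, 104 and 114 CPM, again without overlap (log2 fold change 0.93 ± 0.17). LINC00324 was at 18.0, 17.2 and 17.0 CPM in shNT and at 21.6, 43.7 and 48.7 CPM with OHT, so the size of its rise of 1.10 ± 0.29 differed between libraries. Its call was lost in 5 of 13 alternatives, among them without any 1 of the shNT libraries (largest adjusted p = 0.110, edgeR).

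Among the 7 members that fell, LINC00847 and LINC00862 both fell by 1.36 on the log2 scale (SE 0.32 and 0.30). LINC00862 went from 22.7, 28.5 and 21.6 CPM to 10.0, 12.4 and 7.25 CPM. LINC03033 fell by 1.28 ± 0.20, from 57.9, 80.8 and 67.7 CPM to 24.8, 29.7 and 31.0 CPM (adjusted p = 0.000500, edgeR). LINC00842 fell by 0.86 ± 0.20, LINC00674 by 0.76 ± 0.17, LINC00641 by 0.73 ± 0.21 and LINC00673 by 0.66 ± 0.16. The members called without overlap between the groups' libraries were these 10 of the 43 tested, or 23.3%, against 17.7% of all genes tested, and among called genes 97.7% had no overlap. The first library of shNT with OHT stood apart from its replicates, with a chi-square per degree of freedom over genes of 8.57 and 9.31 against them and 3.80 between the other two. LINC03124 was at 2.82 CPM in it and at 24.7 and 22.3 CPM in the others. Without that library 13 members passed, with 25.8% of all genes, and without the first shNT library 5 did, with 8.06%. LINC00842, LINC00674 and LINC00673 were among the calls lost without it (adjusted p = 0.0644, 0.0605 and 0.0566, edgeR).

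The second comparison set the libraries labelled shCDK12 against shNT, both without OHT. Of the 60 members 42 passed the test, against 62.8% of all genes tested. Of these 21 were higher and 21 lower, with 31.8% and 31.0% of all genes. The members called without overlap were 39 of 60, or 65.0%, against 58.6% of all genes tested. Among called members the share without overlap was 92.9% and among called genes 93.4%. The members' median log2 fold change was −0.02 and that of all genes 0.01. The direction is that of the labels, which CDK12 itself does not bear out here.

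LINC03033 was nearly silent in the libraries labelled shCDK12. They held 0.232, 0.420 and 1.48 CPM of it, from 1, 4 and 8 counts, against 57.9 to 80.8 CPM in shNT. The log2 fold change was −6.58 ± 0.29 (adjusted p = 3.78e-20, edgeR), and its size rests on these few counts. Most of the counts by which LINC03033 was chosen came from shNT, with 247, 414 and 135. Its choice was therefore not independent of this fall. LINC00842 was at 54.3, 43.3 and 50.1 CPM in shNT and at between 7.41 and 9.07 CPM in the libraries labelled shCDK12, a fall by 2.51 ± 0.19. LINC00963, among the 10 members with most counts, went from 191, 192 and 173 CPM to 45.6, 46.3 and 50.9 CPM, a fall by 1.93 ± 0.11 (adjusted p = 1.17e-17, edgeR). The log2 fold changes of LINC00862 and LINC02275 were −2.28 ± 0.27 and −1.94 ± 0.25, neither with overlap between groups. LINC00673, studied as a regulator of the phosphatase PTPN11 in pancreatic cancer, was at 80.4 to 82.7 CPM in shNT and at 37.8 to 41.8 CPM in the other group.

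The largest rise was that of LINC00689 (log2 fold change 2.04 ± 0.24). It was at 6.09, 7.61 and 4.51 CPM in shNT and 30.3, 21.6 and 25.4 CPM in the libraries labelled shCDK12. LINC00324 rose by 1.87 ± 0.19, from 17.0 to 18.0 CPM up to 40.1, 78.1 and 65.9 CPM. LINC01126 rose by 1.45 ± 0.26, LINC01128 by 1.37 ± 0.13 and LINC00839 by 1.37 ± 0.11. The levels of LINC01128 were 36.8, 39.6 and 44.6 CPM against 108, 93.0 and 101 CPM. LINC02693 reached 450.5, 408 and 436 CPM, a rise of 1.31 ± 0.09.

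LINC00667 and LINC00526, which share the promoter region printed above, gave different values. LINC00667 was at 79.9, 88.8 and 94.2 CPM in shNT and at 43.1, 47.7 and 46.6 CPM in the libraries labelled shCDK12, a fall by 0.89 ± 0.13 (adjusted p = 2.21e-07, edgeR). LINC00526 was at 28.6, 22.4 and 16.5 CPM against 28.3, 25.8 and 28.9 CPM, with overlapping groups and a log2 fold change of 0.29 ± 0.19 (adjusted p = 0.176, edgeR). The difference between the pair was not tested.

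**Figure D2:**
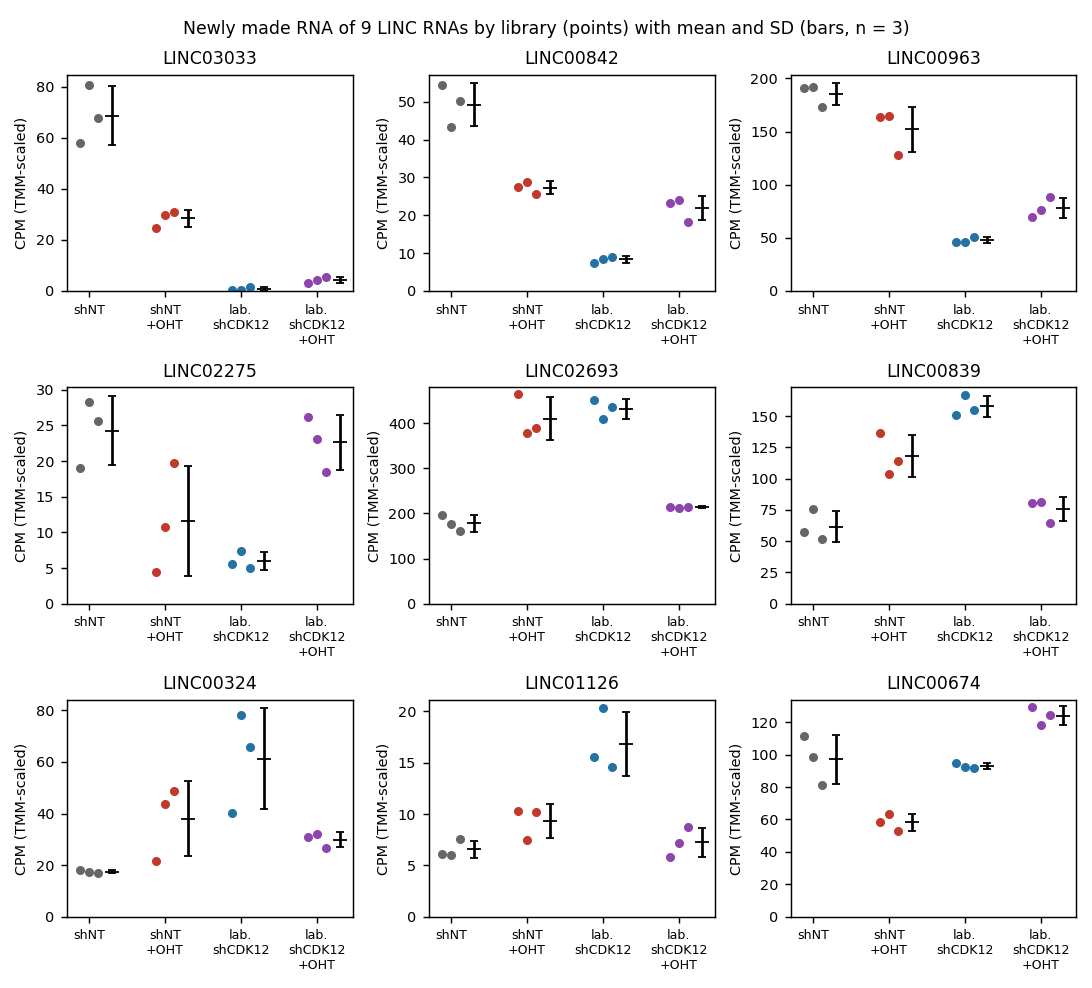
Each panel shows 1 LINC RNA, with the CPM of every library as points over the 4 groups ("lab." stands for labelled) and the mean with SD of 3 libraries beside them; all axes start at 0. LINC03033 lies between 0.232 and 1.48 CPM in the libraries labelled shCDK12, and LINC02693, LINC00839 and LINC00324 have their highest means in one of the middle 2 groups.

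With OHT in both groups, 25 of the 60 members passed the test, against 46.3% of all genes, between the libraries labelled shCDK12 with OHT and shNT with OHT. Of these 14 were higher and 11 lower, with 23.3% and 22.9% of all genes. All 25 were called without overlap, which is 41.7% of the members tested against 44.8% of all genes tested, and 96.9% of the called genes had none. The members' median was 0.12 with 0.02 for all genes. The largest rise was that of LINC01139, known as LINK-A from work on breast cancer signalling. It stood at 5.01, 9.07 and 8.12 CPM in shNT with OHT and at 19.02, 19.40 and 19.95 CPM in the other group (log2 fold change 1.46 ± 0.26, adjusted p = 0.00103, edgeR). LINC00960 rose by 1.26 ± 0.25 and LINC00674 by 1.11 ± 0.13, the latter from 58.3, 63.5 and 52.8 CPM to 129.6, 118 and 124 CPM. LINC03027 and LINC01119 completed the 5 largest rises.

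LINC03033 was also the largest fall here. It was at 24.8, 29.7 and 31.0 CPM in shNT with OHT and at 2.99, 4.28 and 5.26 CPM in the libraries labelled shCDK12 with OHT, a fall by 2.77 ± 0.26 (adjusted p = 2.53e-05, edgeR). LINC00941 fell by 1.41 ± 0.19 and kept its groups tight, with 36.3, 36.3 and 36.8 CPM against 15.9, 12.8 and 12.3 CPM. LINC00221 fell by 1.33 ± 0.23 and LINC00552 by 0.99 ± 0.20. LINC00273 was called at −1.93, but its levels ranged from 15.7 to 56.1 CPM within shNT with OHT, and the call was lost in a single fit of all 12 libraries (adjusted p = 0.0515, edgeR). LINC00941, LINC00221 and LINC00552 fell in both comparisons of the labels. At −1.38 ± 0.19 and −1.41 ± 0.19, LINC00941 had close to the same value in both, from separate libraries. LINC00963 fell by 0.96 ± 0.15 and LINC00958, at 149, 139 and 151 CPM against 243, 257 and 269 CPM, rose by 0.80 ± 0.10. Without 1 of the 3 libraries labelled shCDK12 with OHT, 17, 16 and 20 members passed, with 32.1%, 32.8% and 32.8% of all genes.

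The fourth comparison asked what OHT did in the libraries labelled shCDK12. Of 59 members tested 30 passed, against 49.6% of all genes. Those called without overlap were 28 of 59, or 47.5%, against 46.9% of all genes tested, and the shares among those called were 93.3% and 94.5%. Of the 30, 18 were higher and 12 lower, with 25.7% and 23.9% of all genes. The median log2 fold change was 0.10 for the members and 0.01 for all genes. LINC02275 rose most. It was at 5.56, 7.45 and 5.00 CPM without OHT and at 26.2, 23.1 and 18.5 CPM with it (log2 fold change 1.84 ± 0.20, adjusted p = 7.34e-08, edgeR). LINC00842 rose by 1.36 ± 0.18, to 23.2, 24.1 and 18.3 CPM, and LINC01139 by 1.02 ± 0.17. LINC03033 was below the filter in this fit. Its libraries did not overlap, with 0.232 to 1.48 CPM without OHT and 2.99 to 5.26 CPM with it, and the fit without a filter gave 2.56 ± 0.48 (adjusted p = 8.15e-07, edgeR).

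Among the members that fell with OHT in these libraries, LINC01126 went from 15.5, 20.4 and 14.6 CPM to 5.84, 7.13 and 8.71 CPM, a fall by 1.29 ± 0.20. LINC00839 fell by 1.09 ± 0.10 to 80.4, 81.7 and 64.8 CPM and LINC00324 by 1.09 ± 0.18 to 30.97, 32.04 and 26.67 CPM. LINC02693 fell by 1.05 ± 0.07 to 215, 212 and 215 CPM. LINC00997 fell from 33.8, 45.0 and 41.1 CPM to 18.6, 18.9 and 17.2 CPM.

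The response to OHT was set side by side in both backgrounds, which share no library. Of the 42 members tested in both, 34 had opposite signs, or 81.0%, while 71.0% of all 9913 genes tested in both did. Pearson's r between the log2 fold changes was −0.72 over the 42 members and −0.62 over all genes. These are correlations across genes, which share libraries and are not independent. Of the 9 members called in both backgrounds 8 moved in opposite directions, or 88.9%, as did 97.5% of the 1425 genes called in both. The exception was LINC00641, which fell in both, by 0.73 ± 0.21 in shNT and by 1.04 ± 0.14 in the libraries labelled shCDK12.

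**Figure D3:**
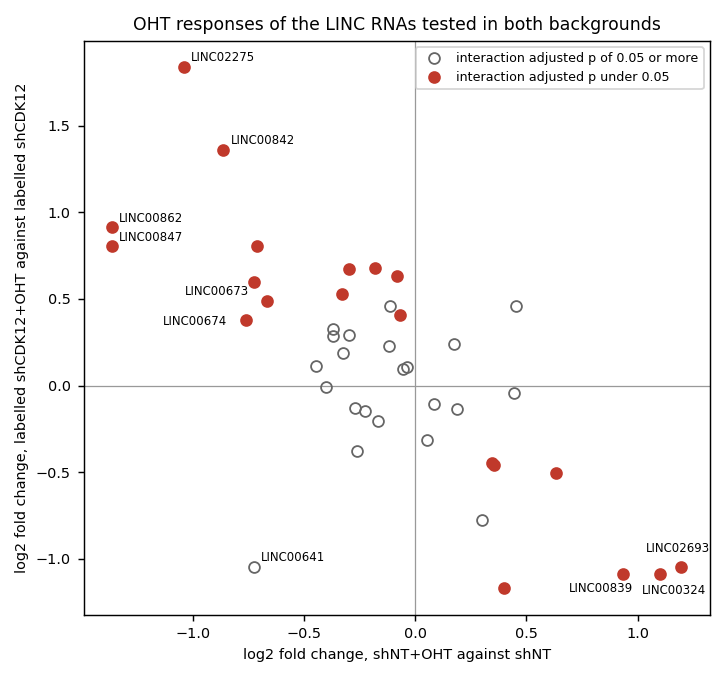
Each point is 1 of the 42 LINC RNAs tested in both backgrounds; the axes give the log2 fold change with OHT in shNT (horizontal) and in the libraries labelled shCDK12 (vertical), and filled points passed the interaction test. Most of the points, 34 of 42, lie in the upper left or lower right quadrant, and LINC00641 lies in the lower left.

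The interaction, coded as the OHT response in the libraries labelled shCDK12 minus that in shNT, tested this difference itself in a fit of all 12 libraries. It passed in 25 of 60 members, against 46.1% of all genes tested. Of these 16 were higher and 9 lower, with 23.6% and 22.4% of all genes. LINC03033 had an interaction of 3.77 ± 0.47 (adjusted p = 1.48e-06, edgeR), LINC02275 of 2.85 ± 0.46 and LINC00842 of 2.19 ± 0.26. The size for LINC03033 rests on 1, 4 and 8 counts in the libraries labelled shCDK12. LINC02275 was at 4.39, 10.7 and 19.7 CPM in shNT with OHT, and its response there was not called (adjusted p = 0.0818, edgeR). Its interaction ranged from 2.36 to 3.71 over the alternatives and stayed called. On the other side, LINC02693 stood at −2.28 ± 0.15 (adjusted p = 9.15e-11, edgeR), LINC00324 at −2.20 ± 0.35 and LINC00839 at −2.06 ± 0.20. LINC02693 and LINC00839 were high in shNT with OHT and in the libraries labelled shCDK12 and lower in the remaining groups. For LINC00324 the libraries with OHT of both backgrounds overlapped. In LINC02693 the groups fell into a high pair from 378 to 464 CPM and a low pair from 160.4 to 215 CPM. LINC00674 was lowest in shNT with OHT and highest in the libraries labelled shCDK12 with OHT, while its groups without OHT overlapped, with an interaction of 1.11 ± 0.18.

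**Figure D4:**
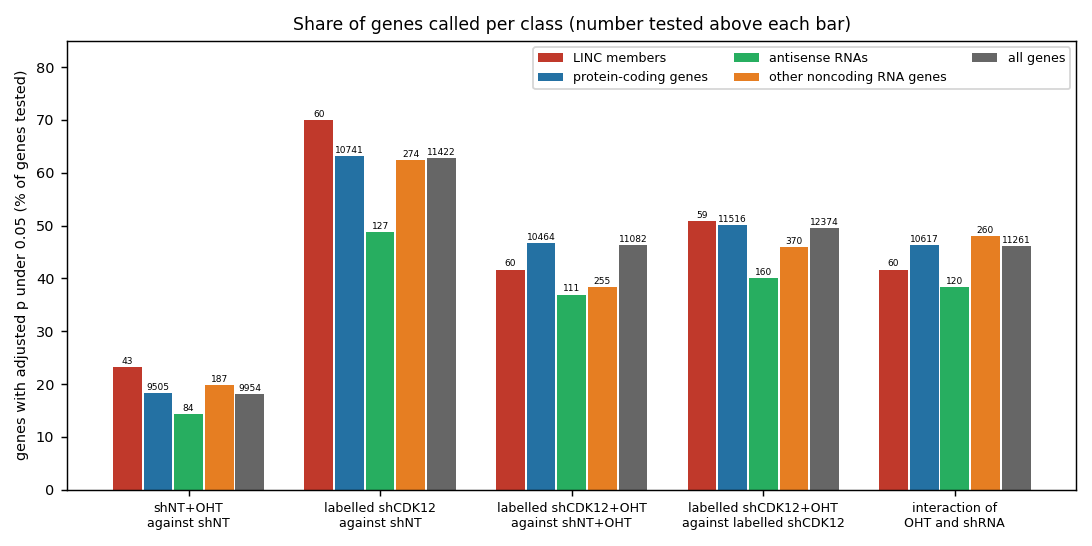
Bars give the percentage of tested genes with an adjusted p under 0.05 (edgeR) in the 4 pairwise comparisons and the interaction, for the LINC RNAs, protein-coding genes, antisense RNAs, other noncoding RNA genes and all genes, with the number tested above each bar. The LINC bars run from 23.3% in shNT with OHT against shNT to 70.0% in the libraries labelled shCDK12 against shNT, and they lie above the all-gene bar in 3 of the 5 and below it in the others.

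The share of LINC RNAs called is set beside the other classes as a description. In the libraries labelled shCDK12 against shNT it was 70.0%, with 63.1% of 10741 protein-coding genes and 48.8% of 127 antisense RNAs. Over the 4 pairwise comparisons 11 members were called in 0, 10 in 1, 23 in 2, 13 in 3 and 3 in all 4, where a comparison in which a member was below the filter counts as without a call. The 3 were LINC02693, LINC00839 and LINC00847. In the order given above, the 4 comparisons called 18.1%, 62.8%, 46.3% and 49.6% of all genes tested. No such tally was made over all genes, so it is not read as a trait of the LINC RNAs. The 11 without a call were LINC00265, LINC00339, LINC00470, LINC00944, LINC01000, LINC01004, LINC01116, LINC01278, LINC01606, LINC02210 and LINC02603. LINC01278, which holds an E-box in its window, was at 12.5 to 23.4 CPM in shNT and at 12.3 to 15.1 CPM in the libraries labelled shCDK12 with OHT. A p above the threshold does not show that these 11 were alike between groups.

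The nearest protein-coding gene was found from RefSeq spans, to see whether a LINC RNA and its neighbour moved together. Of the 60 members 8 overlapped the span of a coding gene, 4 started head-to-head with one within 5000 bp on the opposite strand, 5 lay within 10000 bp downstream on the same strand, 41 lay elsewhere and 2 had no strand given. Both partners were tested in 35 pairs of the libraries labelled shCDK12 against shNT. Of these 26 had the same sign, and in 14 of the 17 pairs with both called the signs were the same. With OHT in shNT there were 15 of 25, and 0 of the 2 with both called. With OHT in both groups there were 17 of 35, and 4 of the 9 with both called. With OHT in the libraries labelled shCDK12 there were 19 of 35, and 8 of the 13 with both called. In the order given here, these comparisons called 62.8%, 18.1%, 46.3% and 49.6% of all genes tested. No such count was made for other pairs of neighbouring genes, so these counts are not read as a trait of the LINC RNAs. Neighbours share libraries, and the use of strand in counting is not given in the sources used here, so reads of overlapping partners cannot be told apart.

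LINC01126 starts head-to-head with ZFP36L2, which encodes a protein that speeds the decay of mRNAs with AU-rich elements, and the pair moved by nearly the same amount. LINC01126 was at 6.09, 6.05 and 7.52 CPM in shNT, at 10.3, 7.42 and 10.1 CPM with OHT, and at 15.5, 20.4 and 14.6 CPM in the libraries labelled shCDK12. ZFP36L2 was at 396, 360 and 352 CPM, at 412, 549 and 575 CPM, and at 893, 1045 and 968 CPM in the same groups. The libraries labelled shCDK12 differed from shNT by 1.45 ± 0.26 for the LINC RNA and 1.43 ± 0.08 for the coding gene, and the differences with OHT within those libraries were −1.29 ± 0.20 and −1.399 ± 0.08. The interactions were −1.90 and −1.89. All 4 head-to-head pairs, with LINC00938 and ARID2, LINC00205 and POFUT2, and LINC00857 and ANXA11, had the same sign in the libraries labelled shCDK12 against shNT, in OHT within them and in the interaction, and 2 of 4 had it with OHT in both groups.

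LINC01096 overlaps NKX3-2, a homeobox gene of skeletal development, and both were low in the libraries labelled shCDK12. The LINC RNA went from 22.7, 28.7 and 20.5 CPM to between 5.33 and 9.07 CPM, and NKX3-2 from 35.8, 35.9 and 37.1 CPM to 4.40, 3.78 and 4.63 CPM. The log2 fold changes were −1.61 ± 0.24 and −3.07 ± 0.23 (adjusted p = 3.49e-07 and 5.87e-14, edgeR). With OHT in shNT only the coding gene was called, at −1.16 ± 0.24, while LINC01096 was at −0.18 ± 0.26. LINC00673 and its neighbour SLC39A11, a zinc transporter gene, likewise both fell, by 0.99 and 1.87 on the log2 scale.

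Other pairs parted. LINC00674 and KPNA2, which encodes a nuclear import receptor, had opposite signs in all 4 comparisons. In the libraries labelled shCDK12 against shNT, however, LINC00674 was not called, at −0.04 ± 0.11 (adjusted p = 0.779, edgeR). With OHT in shNT the LINC RNA fell by 0.76 ± 0.17 and KPNA2 rose by 0.54 ± 0.10, and with OHT in both groups their values were 1.11 ± 0.13 and −0.72 ± 0.09. LINC00324 rose by 1.87 in the libraries labelled shCDK12 against shNT, while CTC1, a telomere maintenance gene just upstream on the same strand, fell by 0.37 ± 0.16. LINC03033 fell by 6.58 there. Its neighbour PRKCH, a protein kinase C gene, had the same sign at −0.29 ± 0.17 but was not called (adjusted p = 0.142, edgeR). LINC00862 fell by 2.28 and ZNF281, a zinc finger gene, rose by 0.49 ± 0.08.

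**Figure D5:**
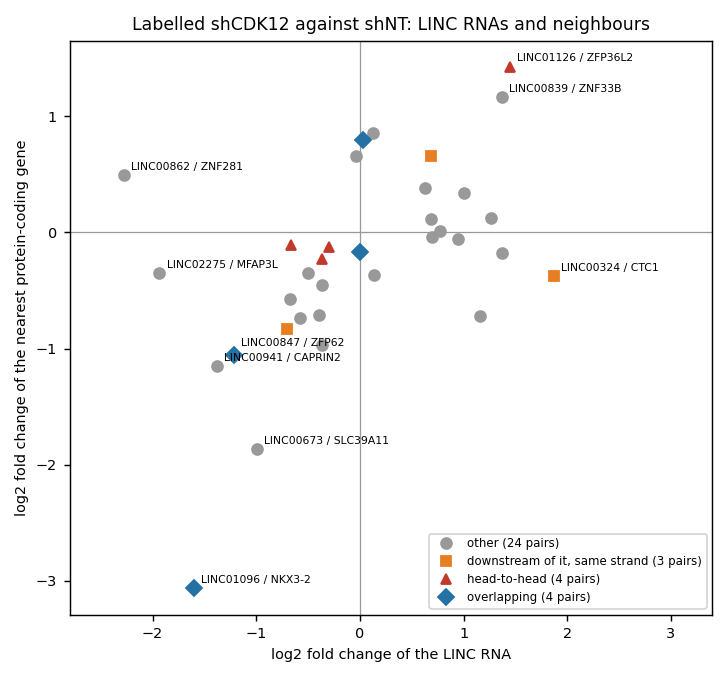
Each point is 1 of 35 pairs; the horizontal axis gives the log2 fold change of the LINC RNA and the vertical axis that of its nearest protein-coding gene, in the libraries labelled shCDK12 against shNT, with the marker showing how the pair lies. LINC01126 with ZFP36L2 sits at 1.45 and 1.43, and 26 of the 35 pairs lie in the quadrants of equal sign; LINC03033 at −6.58 lies off the left edge.

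Of 42 LINC RNAs listed from general knowledge as studied in tumours or in signalling, 28 were in the table under that symbol. Other names of the rest were not looked for. Of the 28, 14 were members. In shNT with OHT against shNT 2 of 13 tested were higher, LINC00324 and LINC00839, and 0 lower, with 9.52% higher and 8.6% lower among all genes. In the libraries labelled shCDK12 against shNT 4 were higher and 4 lower of 14, with 31.8% and 31.0% among all genes, and a median of −0.06 beside 0.01 for all genes. LINC00205 fell by 0.67, from 34.4, 38.8 and 43.1 CPM to 23.2, 24.3 and 23.1 CPM. With OHT in both groups 3 were higher and 3 lower of 14, with 23.3% and 22.9% among all genes. LINC01089, studied as LIMT, an inhibitor of metastasis in breast cancer, was at 24.4, 23.9 and 22.0 CPM against 38.9, 35.5 and 30.8 CPM and rose by 0.59, a call lost in 4 of 13 alternatives. With OHT in the libraries labelled shCDK12 5 were higher and 3 lower of 14, with 25.7% and 23.9% among all genes. LINC00460 rose there by 0.46 (adjusted p = 0.0414, edgeR), with 12.0, 10.2 and 12.6 CPM against 14.7, 19.2 and 13.8 CPM, a call lost in 5 of 12 alternatives, DESeq2 among them. LINC00857 rose there by 0.60, from 18.1, 15.8 and 21.8 CPM to 25.9, 29.2 and 30.5 CPM, a call lost on thinning to equal depth (adjusted p = 0.212, edgeR). LINC00339, LINC00265 and LINC01116 were among the members without a call.

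The members spanned from 1306 to 195371 bp of the genome in RefSeq, with a median of 12512.5 bp. Spearman's rho between span and log2 fold change was −0.29 over 43 members in shNT with OHT against shNT and −0.32 over all genes. In the 3 other pairwise comparisons it lay between −0.10 and 0.20 for the members and between −0.05 and 0.24 for all genes.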

How the data were processed

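EU-seq libraries were made with a stranded total RNA kit from 12 samples of U2OS-MycER cells. The authors deposited 1 table of raw read counts per gene, without normalization. The submitters' processing notes name STAR 2.7.5c, featureCounts 1.4.5-p1 and hg19, and the strand setting is not given in the sources used here. Symbols, spans, neighbours and promoter windows came from RefSeq on GRCh38.p14 by gene identifier (23284 of 23434 rows), so gene coordinates on hg19 are not printed. Groups came from the labels. The members, lists and tests were chosen with earlier results of these data known.

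Counts were tested in edgeR 4.0.16 (R 4.3.3) with TMM normalization, the robust quasi-likelihood test, 2-sided, and Benjamini-Hochberg adjustment over all genes with a mean normalized count above 32 in the fit, at an adjusted p under 0.05. Each pairwise fit held the 6 libraries of its groups and the interaction all 12. The filter removed 17 members from shNT with OHT against shNT and 1 from OHT in the libraries labelled shCDK12. The fits were tested on simulated counts. Named members were the 10 highest, up to 5 each way per comparison among those called without overlap, up to 5 each way in the interaction, the listed LINC RNAs and the neighbours. LINC00526, LINC00641, LINC01060, LINC01096 with NKX3-2, LINC01278 and the members without a call were named after their values were seen. As alternatives, DESeq2 1.42.0, scaling by the upper quartile, other filters, thinning to equal depth, a replicate block, 1 fit over 12 libraries and fits without single libraries were run. Whether replicate numbers pair the libraries is not settled, and the main fits held no pairing.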

Additional observations from a re-analysis of the deposited data

Results flagged for a closer look

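For 10 LINC RNAs the response to OHT differed between the backgrounds by the interaction test (edgeR, adjusted p under 0.05), as the 5 largest values each way among the 25 of 60 members that passed. The interaction is the OHT response in the libraries labelled shCDK12 minus that in shNT, on the log2 scale, and its direction rests on a label that CDK12 did not bear out without OHT. The positive values were 3.77 for LINC03033, 2.85 for LINC02275, 2.26 for LINC00862, 2.19 for LINC00842 and 2.10 for LINC00847. That of LINC03033 rests on few counts in the libraries labelled shCDK12. The negative values were −2.28 for LINC02693, −2.20 for LINC00324, −2.06 for LINC00839, −1.90 for LINC01126 and −1.64 for LINC00689. Of all genes tested, 46.1% passed the same test.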

How the results depend on the processing

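Counts of LINC RNAs called are given in the order shNT with OHT against shNT (10), labelled shCDK12 against shNT (42), the same with OHT (25), OHT within labelled shCDK12 (30) and the interaction (25). Thinning to equal depth gave 6, 17, 6, 13 and 11, with 24, 24, 21, 23 and 22 members left above the filter. Of all genes tested after thinning, 17.7%, 59.3%, 42.6%, 43.6% and 43.0% were called. Thinning moved the share of higher calls in the last 2 from 18 of 30 to 6 of 13 and from 16 of 25 to 5 of 11. A fit of all 12 libraries gave 17 in the first, with 29.1% of all genes. Leaving out 1 library gave 5 to 13, 33 to 42, 16 to 32, 26 to 33 and 23 to 28. The lowest of the first was without shNT replicate 1 and that of the third without shCDK12 with OHT replicate 2. Of all genes tested, 7.48% to 25.8%, 56.3% to 61.3%, 32.1% to 53.9%, 41.2% to 51.5% and 40.8% to 50.6% were then called. DESeq2, upper-quartile normalization, the other filters and the 50 members with at least 10 counts in every library moved no count by over 1.5 times, and no shared call changed direction in any of these settings. The replicate block gave 11, 44, 26, 30 and 26, with 18.8%, 63.9%, 42.3%, 50.2% and 47.2% of all genes. Same-numbered libraries had correlations of their deviations from −0.114 to 0.375 with 4 of 18 over 0.1. Libraries of different number had −0.403 to 0.104 with 1 of 36 over 0.1. The highest were between shNT with OHT and labelled shCDK12, at 0.375 for replicate 2 and 0.333 for replicate 1. Whether the numbers pair the libraries is thus not settled, and the main fits held no pairing.

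A gene below the filter in an alternative was not counted there. With OHT in both groups, LINC01119 was tested in 10 alternatives and LINC02693 in 13. Of 84 named values 68 kept their call and sign in every alternative in which the gene was tested. The call was lost in at least 1 alternative for 15, and 1 value changed sign. That was CDK12 in labelled shCDK12 against shNT, whose log2 fold change of −0.04 ranged from −0.0997 without shNT replicate 2 to 0.0120 without shCDK12 replicate 2 and had no call in any setting. Depth is a limit in each comparison. In the first, the filter at 32 left out 17 members, which were tested with the filter at 10.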
